A study of Homo sapiens with 32 samples.

Results

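Matrix metalloproteinases (MMPs) are zinc proteases that cut proteins of the extracellular matrix and the cell surface, and tissue inhibitors of metalloproteinases (TIMPs) bind their active sites and block them. Most MMPs are secreted as inactive proenzymes that other proteases activate, so an mRNA level is not a measure of protease activity. In cultured epithelial cells, several secreted MMP genes are known targets of growth factor signaling through ERK and the transcription factor AP-1. The members described here were the rows of the count and TPM tables whose gene symbol was 1 of 10 listed names: *MMP1* and *MMP13*, which are collagenases; *MMP3* and *MMP10*, which are stromelysins; *MMP7*, a matrilysin; *MMP14* and *MMP16*, which are membrane-anchored MMPs; and the inhibitors *TIMP1*, *TIMP2*, and *TIMP3*. All 10 were found among the 25498 genes of the tables, and all 10 were among the 16995 genes with enough counts to be tested. The names had been selected on measured values of these libraries, the counts and log2 fold changes of the ligand-treated cells at 1 hour and 4 hours against untreated cells, so those comparisons are given as levels without *P* values.

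The data were 32 bulk RNA-seq libraries of LNCaP, an established androgen-responsive human prostate cancer cell line derived from a lymph node metastasis. Each of 8 groups had 4 libraries: cells in medium with full serum (FBS) and no added growth factor, cells in medium with charcoal/dextran-treated serum (CSS), which is depleted of steroid hormones, and no added growth factor, and cells in CSS medium given 100 ng/mL EGF or 100 ng/mL NRG-1 for 5 minutes, 1 hour, or 4 hours. EGF is the ligand of the EGF receptor, and NRG-1 binds HER3 and HER4, which signal in pairs with HER2. Replicates 1 and 2 of each group were in batch 1, and replicates 3 and 4 were in batch 2; the labels call them biological replicates of 1 cell line. Library totals ranged from 63822654 to 92401724 counts.

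The cells had the markers of their label. All 10 luminal prostate markers examined were detected in every group (mean TPM of at least 1), with a summed level of 3161 to 6193 TPM per library. Of 8 fibroblast markers, 1 reached that level, *COL1A1*, and *COL1A2* had a mean of 0 TPM in every group. Of 7 leukocyte markers, only *CD68* reached it. Its mean was 3.59 TPM in CSS, 13.9 TPM after 4 hours of EGF, and 8.83 TPM after 4 hours of NRG-1, and the summed leukocyte level moved with it, from 3.34–4.16 TPM per library in CSS to 12.4–16.4 TPM and 6.72–11.0 TPM. The pan-leukocyte gene *PTPRC* was at or below a group mean of 0.0275 TPM throughout, and the monocyte gene *CD14* was at or below 0.0650 TPM. At 4 hours of each ligand, 2 of the 7 leukocyte markers passed an adjusted *P* of 0.05 by edgeR and a log2 fold change of 1 as higher than in CSS, *CD68* and *CSF1R*. Over all genes tested, 5.86% passed as higher at 4 hours of EGF and 4.87% at 4 hours of NRG-1. *CSF1R* had 4 counts over the 4 CSS libraries, 47 after EGF, and 40 after NRG-1. Of the fibroblast markers 1 passed there, *PDGFRA*, with 0, 95, and 47 counts in the same groups. The part of these genes in the 4-hour results was not tested.

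Promoter sequences from RefSeq (GRCh38.p14) were matched for 5 of the 10 genes. The 250 bases before the transcription start are shown for the 4 of them that were higher in ligand-treated cells, 5′ to 3′ on the strand of the gene, with 2 motifs in capitals: AP-1 (TGAGTCA, or TGACTCA on the other strand) and PEA3 (AGGAAG, or CTTCCT on the other strand), a short form of the site of ETS-family factors. The letters of the 2 motifs did not overlap at any match.
MMP7, chr11:102530748-102530997, minus strand: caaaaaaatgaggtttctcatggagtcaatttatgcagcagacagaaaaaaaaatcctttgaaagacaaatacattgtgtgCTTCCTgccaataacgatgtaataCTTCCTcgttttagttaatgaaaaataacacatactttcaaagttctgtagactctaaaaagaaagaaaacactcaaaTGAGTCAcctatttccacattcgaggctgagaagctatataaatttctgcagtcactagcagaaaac
MMP10, chr11:102780629-102780878, minus strand: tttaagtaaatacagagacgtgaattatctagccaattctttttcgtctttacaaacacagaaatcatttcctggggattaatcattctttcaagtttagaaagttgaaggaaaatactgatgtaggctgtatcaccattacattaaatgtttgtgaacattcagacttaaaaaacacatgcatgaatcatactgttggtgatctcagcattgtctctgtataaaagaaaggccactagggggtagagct
TIMP1, chrX:47582186-47582435, plus strand: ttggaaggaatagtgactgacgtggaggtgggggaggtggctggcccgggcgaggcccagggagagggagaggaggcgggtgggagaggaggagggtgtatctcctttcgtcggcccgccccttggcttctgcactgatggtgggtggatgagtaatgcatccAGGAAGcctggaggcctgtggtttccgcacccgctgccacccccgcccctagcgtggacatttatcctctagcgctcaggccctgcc
TIMP3, chr22:32801455-32801704, plus strand: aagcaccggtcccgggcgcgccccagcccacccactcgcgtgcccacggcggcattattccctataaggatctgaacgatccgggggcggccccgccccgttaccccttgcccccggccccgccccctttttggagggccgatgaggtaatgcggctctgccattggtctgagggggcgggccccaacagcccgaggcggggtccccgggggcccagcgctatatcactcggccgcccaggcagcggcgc
*MMP7* held 1 AP-1 match that began 67 bases upstream of the start, and 2 PEA3 matches that began 169 and 145 bases upstream. *TIMP1* held 1 PEA3 match that began 87 bases upstream. Neither motif was found in these windows of *MMP10* and *TIMP3*, nor in that of *MMP14*. Only the exact letters given were searched, so a site with other letters would not be marked or counted. Among the 35116 promoter windows of the same length in the RefSeq table, 4.2% held the AP-1 letters and 28.71% held the PEA3 letters.

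**Figure D1:**
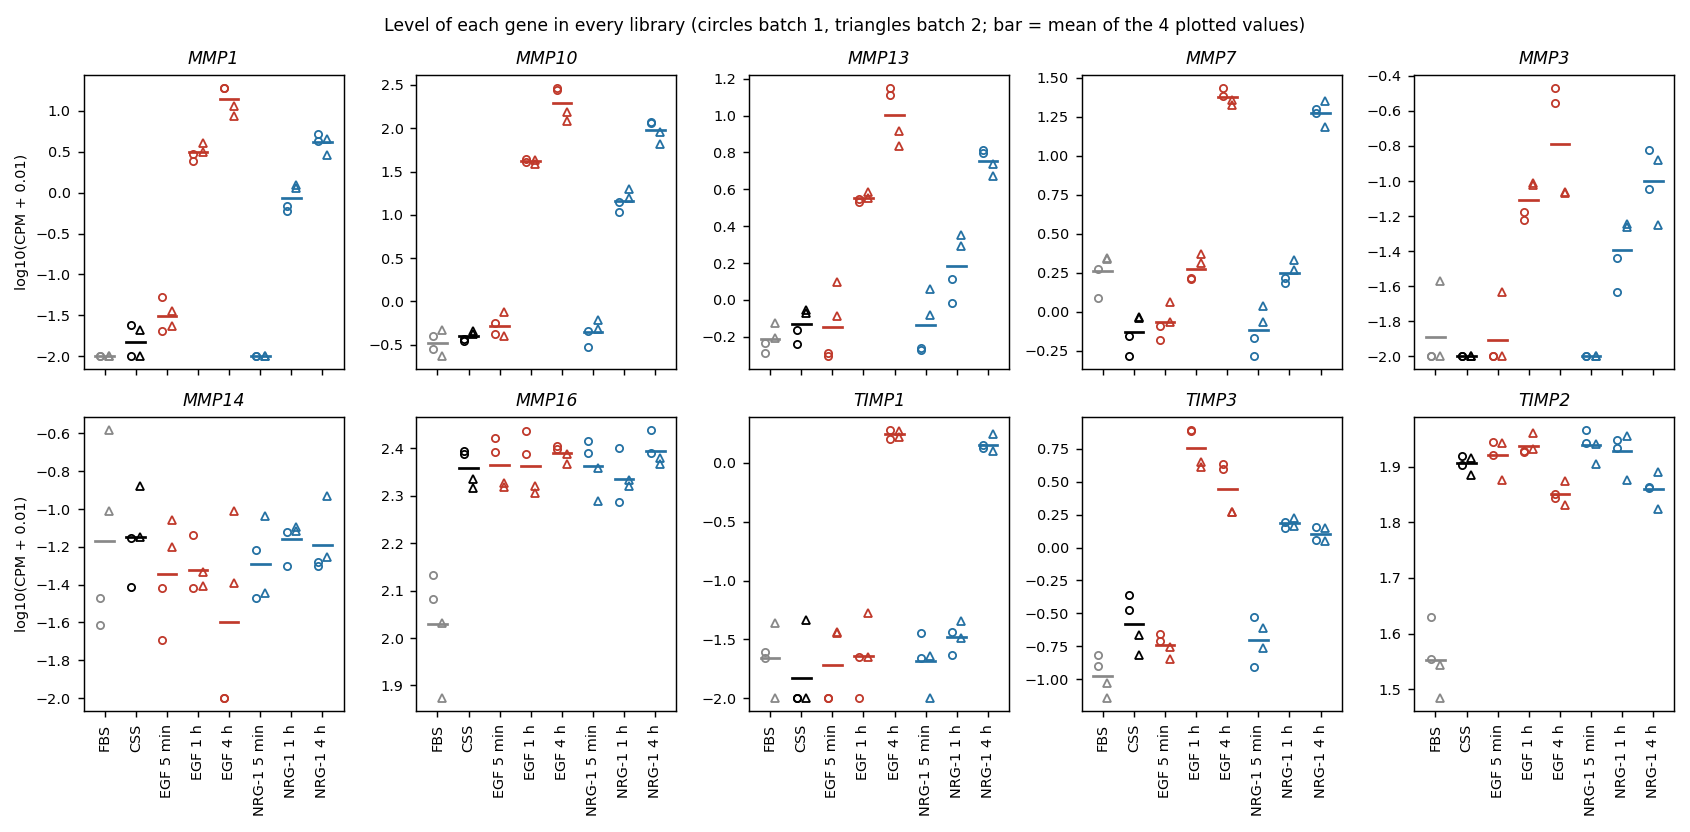
Level of each of the 10 genes in every library, as log10 of CPM (counts scaled to the library total) plus 0.01, for the 8 groups. Circles are batch 1, triangles are batch 2, and bars are means of the 4 plotted values; the scales differ between panels. *MMP10* ran from 0.344–0.449 CPM in CSS to 122–292 CPM after 4 hours of EGF, whereas *MMP16* and *TIMP2* were lower in FBS than in the other groups.

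With either ligand, 6 of the 10 genes were higher than in CSS at 1 hour (*MMP1*, *MMP3*, *MMP7*, *MMP10*, *MMP13*, and *TIMP3*) and 7 at 4 hours (the same 6 and *TIMP1*), counting genes with an adjusted *P* value below 0.05 by edgeR's quasi-likelihood test and a log2 fold change above 1. None was lower. Over all genes tested, the share past these thresholds in either direction was 1.72% for EGF and 0.989% for NRG-1 at 1 hour, and 9.56% and 7.41% at 4 hours. In the higher direction alone these shares were 1.46%, 0.806%, 5.86%, and 4.87%. Because the genes were proposed with these contrasts in view, nothing is read from the excess. These comparisons, those at 5 minutes, and that of FBS with CSS share the 4 CSS libraries. In bulk RNA, more cells with a transcript cannot be told apart from more transcript per cell.

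*MMP10* had the highest mean TPM of the 5 secreted MMP transcripts at 1 hour and 4 hours of either ligand, whereas at 5 minutes *MMP7* was higher (1.58 against 0.565 TPM with EGF). Its counts in CSS were 30, 24, 37, and 37 in replicates 1 to 4. After EGF they were 3540, 2908, 3157, and 2966 at 1 hour and 19419, 25673, 9664, and 10068 at 4 hours. After NRG-1 they were 1052, 821, 1398, and 1680 at 1 hour and 8879, 8257, 4280, and 5910 at 4 hours. No library with 1 hour or 4 hours of ligand overlapped with CSS. In CPM, with library totals scaled by TMM, the order was EGF at 4 hours (211 ± 85.9, SD, *n* = 4), NRG-1 at 4 hours (97.6 ± 24.9), EGF at 1 hour (41.7 ± 2.56), and NRG-1 at 1 hour (15.0 ± 3.74), and no neighbors in this order overlapped. The log2 fold change over CSS was 6.72 (SE 0.30) for EGF and 5.26 (SE 0.30) for NRG-1 at 1 hour, and 9.03 (SE 0.31) and 7.93 (SE 0.31) at 4 hours.

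The collagenase gene *MMP1* was nearly silent without ligand. In CSS its counts were 0, 1, 1, and 0, and in FBS all 4 libraries had 0. EGF gave 195, 211, 255, and 282 counts at 1 hour and 1342, 1676, 697, and 760 at 4 hours. NRG-1 gave 51, 45, 101, and 105 counts at 1 hour, and from 190 to 370 at 4 hours. Since CSS held 2 counts in all, the ratio to CSS is set by those 2 counts: it was 508 (95% counting interval 140–4205) for EGF and 150 (41.2–1245) for NRG-1 at 1 hour, and 2403 (665–19852) and 690 (191–5704) at 4 hours. These intervals are exact conditional binomial intervals on summed counts and cover counting error only.

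The other collagenase gene, *MMP13*, had a higher floor and a smaller difference. CSS held 47, 47, 76, and 72 counts. EGF gave 270, 251, 292, and 265 counts at 1 hour and 990, 1130, 540, and 538 at 4 hours, and NRG-1 gave 98, 73, 176, and 190 and then 487, 444, 306, and 356. The log2 fold change over CSS was 2.28 (SE 0.27) and 1.12 (SE 0.29) at 1 hour for EGF and NRG-1, and 3.85 (SE 0.27) and 2.96 (SE 0.27) at 4 hours. In CPM, the NRG-1 libraries at 1 hour (0.955–2.23) overlapped with those at 5 minutes of either ligand, and no ligand group at 4 hours overlapped with a group at 1 hour. It was no longer past the thresholds at 1 hour of NRG-1 without CSS replicate 1 or NRG-1 replicate 4.

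*MMP3*, the second stromelysin gene, stayed at very low counts. It had 0 counts in all 4 CSS libraries. EGF gave 4, 4, 7, and 6 counts at 1 hour and 19, 29, 6, and 5 at 4 hours, and NRG-1 gave 1, 2, 4, and 4 and then 6, 10, 8, and 3. Against a floor of 3 counts over the CSS group, the 1-hour libraries were at least 7.55-fold higher for EGF and at least 3.65-fold for NRG-1, and the 4-hour libraries at least 21.1-fold and 10.6-fold higher. The 1-hour and 4-hour libraries overlapped for both ligands. Its place among the genes past the thresholds at 1 hour of NRG-1 was lost without any 1 of the CSS libraries or without NRG-1 replicate 2, 3, or 4. In TPM, which corrects for transcript length, its 4-hour EGF mean was 0.185, against 217 for *MMP10*.

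The matrilysin gene *MMP7*, which is expressed by many epithelia, was already present in untreated cells and rose late. CSS held 42, 48, 83, and 74 counts, and FBS held 102, 128, 173, and 130. At 1 hour EGF gave 127, 115, 166, and 162 counts and NRG-1 gave 123, 116, 165, and 181. At 4 hours EGF gave 1702, 2383, 1676, and 1476 and NRG-1 gave 1398, 1413, 1003, and 1454. In CPM the FBS, 1-hour EGF, and 1-hour NRG-1 libraries overlapped with each other, and all 12 lay above the 4 CSS libraries. The log2 fold change over CSS was 1.33 (SE 0.19) for EGF and 1.24 (SE 0.19) for NRG-1 at 1 hour, and 5.00 (SE 0.18) and 4.67 (SE 0.18) at 4 hours.

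Neither membrane-anchored MMP gene passed the thresholds against CSS with any ligand or time. *MMP14*, whose protein activates pro-MMP2, had 15 counts or fewer in every library, and at 4 hours of EGF it passed as lower in batch 1 alone (log2 difference −4.88) and without EGF replicate 3 (−2.52). The batch 1 libraries had 0 and 0 counts with EGF at that time, against 5 and 2 in CSS, so the size of these differences is set by the floor. *MMP16* was the most abundant MMP transcript in CSS, at a mean of 63.2 TPM against 1.39 TPM for *MMP7* and 0.425 TPM for *MMP10*. It had 20234, 17283, 19565, and 17074 counts in CSS, and the 24 ligand-treated libraries ran from 14466 to 25594. Its group means in CPM lay between 217 and 248 in CSS and the 6 ligand groups.

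Among the inhibitors, *TIMP1* and *TIMP3* differed in timing. *TIMP1*, a soluble inhibitor of most secreted MMPs, had 0, 0, 0, and 3 counts in CSS and 3 or fewer in each library at 1 hour of either ligand. At 4 hours it had 111, 167, 131, and 121 counts with EGF and 105, 94, 82, and 114 with NRG-1. The ratio to CSS at 4 hours was 190 (95% counting interval 64.6–923) for EGF and 155 (52.5–753) for NRG-1, on 3 CSS counts that all came from replicate 4.

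*TIMP3*, an inhibitor that is held in the extracellular matrix, had its highest mean at 1 hour. CSS held 27, 30, 13, and 17 counts. EGF gave 606, 551, 332, and 304 counts at 1 hour and 275, 374, 147, and 121 at 4 hours, and NRG-1 gave 117, 107, 131, and 141 and then 106, 80, 92, and 72. The log2 fold change over CSS was 4.43 (SE 0.23) for EGF and 2.53 (SE 0.24) for NRG-1 at 1 hour, and 3.41 (SE 0.24) and 2.24 (SE 0.25) at 4 hours. With EGF the 4-hour mean was 49.8% of the 1-hour mean, with a 4-hour to 1-hour ratio of 0.532 in batch 1 and 0.438 in batch 2. Pooled over batches, the 1-hour and 4-hour libraries overlapped.

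*TIMP2*, which inhibits MMPs and also takes part in the activation of pro-MMP2 by *MMP14*, made up nearly all of the TIMP transcript pool. It had 6632, 5809, 7443, and 6334 counts in CSS. Its mean was 80.7 ± 2.79 CPM (SD, *n* = 4) in CSS, 86.6 ± 3.16 after 1 hour and 70.9 ± 2.99 after 4 hours with EGF, and 72.6 ± 4.51 after 4 hours with NRG-1. The NRG-1 libraries at 1 hour ran from 75.2 to 90.1 CPM. The log2 difference from CSS at 4 hours was −0.19 (SE 0.07) with EGF and −0.15 (SE 0.07) with NRG-1, under the fold limit, although the 4-hour EGF libraries did not overlap with CSS.

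**Figure D2:**
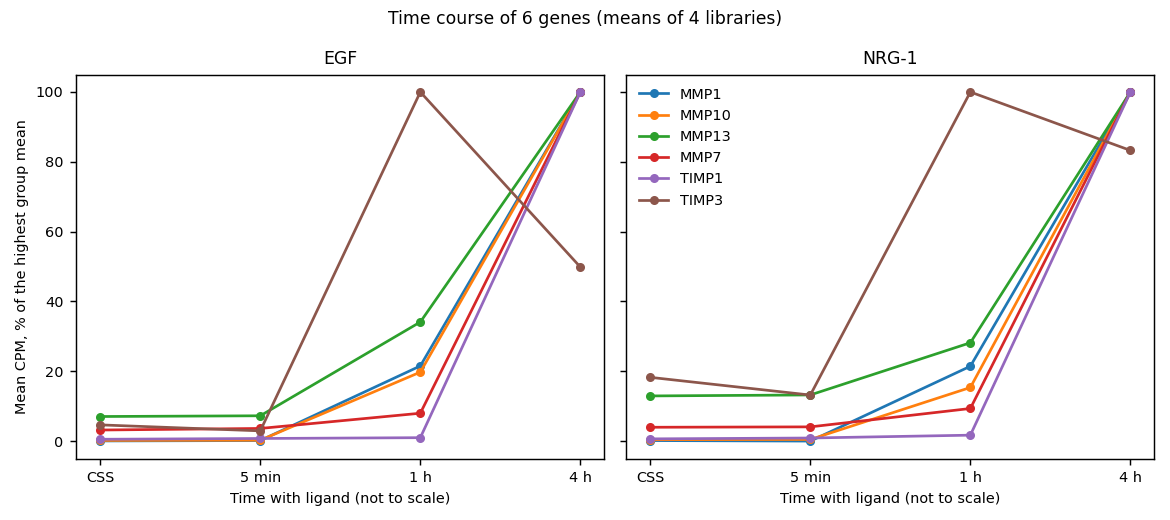
Mean CPM of 6 genes over time with EGF (left) or NRG-1 (right), as a percentage of the highest of the 4 group means plotted (*n* = 4 libraries each). *TIMP3* peaked at 1 hour, *MMP1*, *MMP10*, and *MMP13* were between 15.4% and 34.1% of their 4-hour mean at 1 hour, and *MMP7* and *TIMP1* were below 10%.

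Expressed as the 1-hour mean over the 4-hour mean, the 5 genes whose 1-hour and 4-hour libraries did not overlap with either ligand fell in a range. With EGF it was 34.1% for *MMP13*, 21.5% for *MMP1*, 19.8% for *MMP10*, 7.98% for *MMP7*, and 0.976% for *TIMP1*. With NRG-1 the same genes were at 28.2%, 21.4%, 15.4%, 9.34%, and 1.70%. The order of the 5 genes was the same with both ligands. *MMP3*, with few counts and overlapping libraries, was at 37.0% and 33.7%, and *TIMP3* was at 201% and 120%. The 4-hour libraries with EGF also differed by batch. The batch 1 mean was 2.06 times the batch 2 mean for *MMP10*, 1.87 times for *MMP1*, 1.79 times for *MMP13*, and 2.21 times for *TIMP3*, with no overlap. It was 1.18 times for *MMP7*, also with no overlap, and 0.995 times for *TIMP1*, whose batches overlapped. For *MMP3*, at 5 to 29 counts, it was 3.95 times, with no overlap. With EGF, the 4-hour to 1-hour ratio of *MMP3* was 5.63 in batch 1 and 0.883 in batch 2. Within each batch, *MMP10* was still higher at 4 hours than at 1 hour, 6.66 times in batch 1 and 3.39 times in batch 2 with EGF.

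The 5-minute libraries were tested, since they were not used to propose the genes. The CSS libraries they were compared with had been used, so these tests are not fully independent of the choice of genes. None of the 10 genes passed the thresholds with EGF or with NRG-1 by edgeR, none had an unadjusted *P* value below 0.05, and none passed with DESeq2. Over all genes the share past the thresholds was 0.00588% for EGF and 0% for NRG-1. *MMP10* had 30 to 57 counts with EGF and 24 to 46 with NRG-1, which overlapped with CSS. *MMP1* had 3, 1, 2, and 1 counts with EGF and 0 in all 4 NRG-1 libraries, and a difference was not detectable at this depth. The same holds for *MMP3*, with at most 1 count in any 5-minute library, and *TIMP1*, with at most 2. These genes met the count filter only through libraries with 1 hour or 4 hours of ligand, so nothing is read from their results at 5 minutes.

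EGF and NRG-1 were then compared directly at each time. The comparisons at 1 hour and 4 hours used the same ligand-treated libraries whose values had chosen the genes. They are given for these genes without *P* values, and nothing is read from the count of genes past the thresholds. At 1 hour, 4 of the 10 genes were higher with EGF and none with NRG-1, and at 4 hours, 3 were higher with EGF. The share over all genes past the same thresholds was 0.171% at 1 hour and 0.171% at 4 hours, and 0.171% and 0.147% in the direction of EGF. At 5 minutes, 0 passed by edgeR or DESeq2 and 0 had an unadjusted *P* value below 0.05, against 0% of all genes. *MMP1*, *MMP3*, and *TIMP1* had too few counts at that time to show a difference.

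At 1 hour, *TIMP3* had the largest ligand difference of the 10, at 1.90 on the log2 scale for EGF over NRG-1 (SE 0.19, edgeR). *MMP1*, whose difference at this time was already known when the genes were chosen, followed at 1.78 (SE 0.27), then *MMP10* at 1.46 (SE 0.21) and *MMP13* at 1.16 (SE 0.25). For these 4 genes no EGF library overlapped with an NRG-1 library. Both batches showed the same direction, with EGF to NRG-1 ratios in batches 1 and 2 of 5.22 and 2.71 for *TIMP3*, 4.30 and 3.05 for *MMP1*, 3.47 and 2.31 for *MMP10*, and 3.08 and 1.77 for *MMP13*. When batch 2 was fitted alone, with 2 libraries a group, only *TIMP3* passed. *MMP13* was no longer past the thresholds without NRG-1 replicate 1 or without NRG-1 replicate 2.

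At 4 hours the log2 fold change for EGF over NRG-1 was 1.78 for *MMP1* (SE 0.23), 1.17 for *TIMP3* (SE 0.20), and 1.10 for *MMP10* (SE 0.20). The ratio in batches 1 and 2 was 4.02 and 2.76 for *MMP1*, 3.22 and 1.48 for *TIMP3*, and 2.43 and 1.77 for *MMP10*. None of the 3 passed in batch 2 alone. *MMP10* dropped under the fold limit without EGF replicate 1 (0.97), EGF replicate 2 (0.93), or NRG-1 replicate 3 (0.97). *MMP13* was under the fold limit, at 0.89 (SE 0.23), and passed it without EGF replicate 3 (1.09) or replicate 4 (1.02).

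The remaining genes showed no ligand difference past the thresholds. *MMP7* differed by 0.09 on the log2 scale at 1 hour (SE 0.17) and by 0.33 at 4 hours (SE 0.14), and *TIMP1* by 0.29 at 4 hours (SE 0.22), with overlapping libraries in each case. *MMP16* and *TIMP2* were within 0.09 of 0 at both times. Whether the ligand difference itself changed between 1 hour and 4 hours was fitted as an interaction. This fit used the same ligand-treated libraries whose values had chosen the genes, so nothing is read from its result for them. None of the 10 genes passed, against 0.0824% of all genes. The log2 difference was −0.73 (SE 0.27) for *TIMP3* and 0.80 (SE 0.85) for *TIMP1*, which had few counts at 1 hour.

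**Figure D3:**
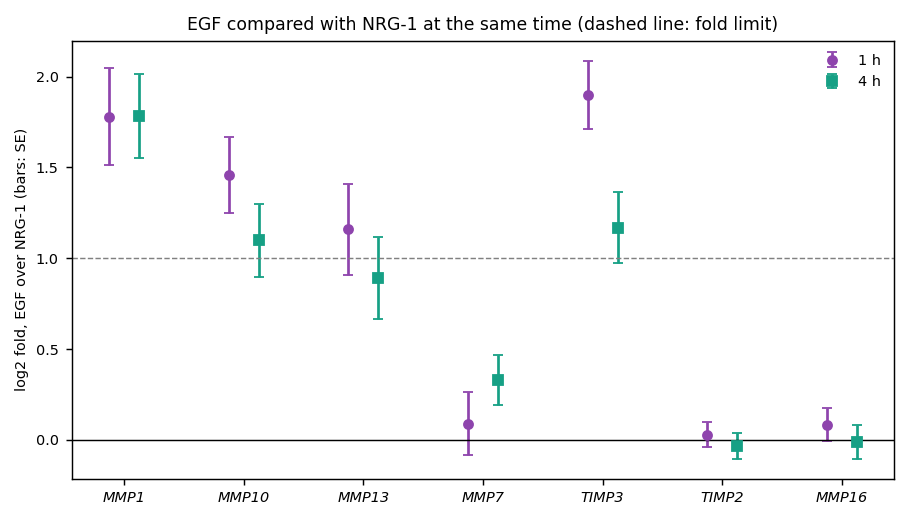
Log2 fold change of EGF over NRG-1 at 1 hour (circles) and 4 hours (squares) for 7 genes, with standard errors from edgeR; the solid line is no difference and the dashed line is the fold limit. *MMP1*, *MMP10*, and *TIMP3* lay above the limit at both times, *MMP13* at 1 hour, and *MMP7*, *TIMP2*, and *MMP16* lay below it at both.

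The comparison of full serum with stripped serum asked about a different condition, in which no ligand was added. Its CSS libraries had entered the choice of the genes, so it is not fully independent of that choice. Of the 10 genes, 4 passed the thresholds: *MMP7* was higher in FBS, and *MMP16*, *TIMP2*, and *TIMP3* were lower. Over all genes, 8.71% passed, 4.91% higher and 3.8% lower. *TIMP2* had 3570, 2482, 2797, and 1812 counts in FBS, with no overlap with CSS in CPM, and its log2 difference from CSS was −1.17 (SE 0.07, adjusted *P* = 6.97e-14). *MMP16* had 11366, 8377, 8609, and 4445 counts in FBS, again without overlap, and fell below CSS by 1.07 on the log2 scale (SE 0.09, adjusted *P* = 1.16e-10). Its call was lost at the fold limit in batch 1 alone (−0.94) and without FBS replicate 4 (−0.95).

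*TIMP3* had 12, 8, 5, and 5 counts in FBS, and its log2 difference from CSS was −1.40 (SE 0.38, adjusted *P* = 0.00274). With limma on log2(TPM + 0.1) it was −0.55 and on log2(TPM + 1) it was −0.08 (adjusted *P* = 0.469), and neither passed. In CPM the FBS libraries ended just below the lowest CSS library (0.143 against 0.144). *MMP7* was higher by 1.29 on the log2 scale (SE 0.19, adjusted *P* = 2.41e-06), again without overlap. The other 6 genes did not pass. Of these, *MMP1*, *MMP3*, and *TIMP1* had at most 3 counts in any FBS or CSS library, too few to show a difference. *MMP10* had 23, 27, 18, and 27 counts in FBS, and *MMP13* had 35 to 49. The androgen-regulated gene *KLK3*, which encodes PSA, had a mean of 2442 TPM in FBS and 283 TPM in CSS. The part of androgen, or of any other serum component, in these values was not tested.

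**Figure D4:**
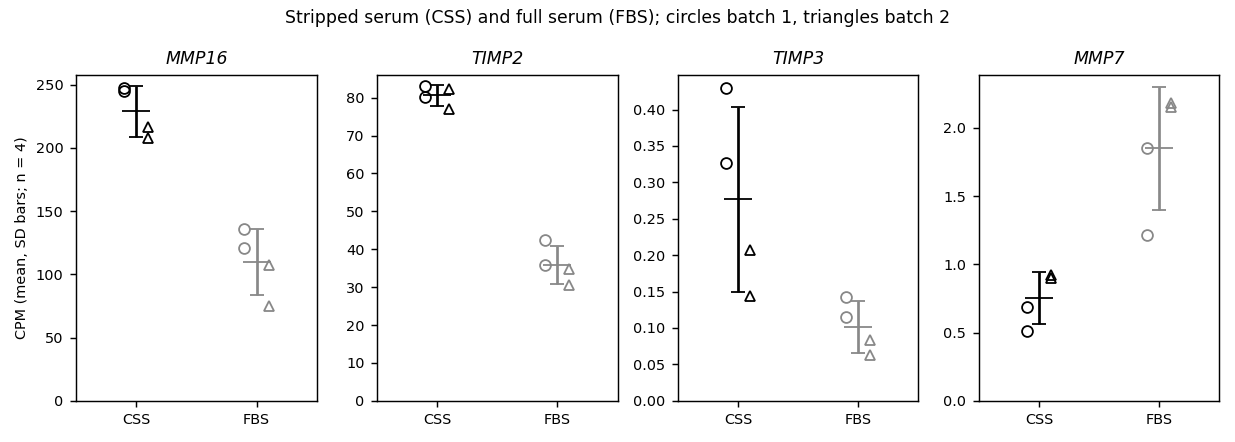
CPM of *MMP16*, *TIMP2*, *TIMP3*, and *MMP7* in CSS and FBS, with each library (circles batch 1, triangles batch 2), the mean and SD (*n* = 4); each axis starts at 0. *MMP16* had a mean of 229 CPM in CSS and 110 in FBS, and *TIMP2* had 80.7 and 35.9.

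The balance between protease and inhibitor transcripts was described with summed TPM. The 5 secreted MMPs together had 1.72–2.75 TPM per library in CSS, 2.88–4.13 in FBS, 52.2–57.2 after 1 hour and 183–371 after 4 hours with EGF, and for NRG-1 14.9–23.5 and 105–170. *MMP10* made up 71.9%–80.7% of that sum at 4 hours of EGF and 16.4%–23.3% in CSS. The 3 TIMPs together had 34.8–43.5 TPM in CSS, 35.2–41.0 at 4 hours of EGF, and 11.1–20.5 in FBS. The ratio of secreted MMP to TIMP transcripts, which leaves out *MMP14* and *MMP16* and is carried by genes chosen for their levels after ligand, ran from 0.0437–0.0727 in CSS and 0.140–0.336 in FBS to 1.11–1.32 after 1 hour and 4.47–9.85 after 4 hours with EGF, and for NRG-1 to 0.369–0.752 and 2.54–4.38. With all 7 MMPs, most of whose sum in CSS was *MMP16*, the ratio was 1.55–1.76 in CSS, 1.71–2.13 in FBS, 2.32–2.91 after 1 hour and 6.10–11.6 after 4 hours with EGF, and 1.62–2.30 and 4.12–6.27 with NRG-1. *TIMP2* was 99.6%–99.9% of the TIMP sum in CSS and 85.3%–89.0% at 4 hours of EGF.

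**Figure D5:**
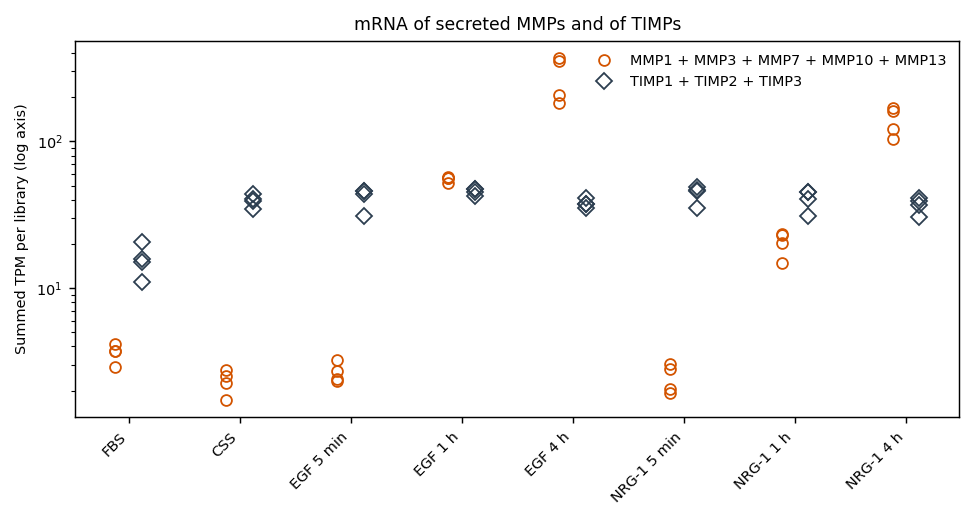
Summed TPM per library, on a log axis, of the 5 secreted MMPs (circles) and of the 3 TIMPs (diamonds) in the 8 groups, with *MMP14* and *MMP16* left out. The secreted MMP sum was below the TIMP sum in every library of CSS, FBS, both 5-minute groups, and NRG-1 at 1 hour, and above it in all libraries of EGF at 1 hour and of both ligands at 4 hours.

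*MMP7*, *MMP10*, *MMP1*, *MMP3*, and *MMP13* lie in 1 run of 9 neighboring protein-coding genes on chromosome 11, all of them MMPs in RefSeq (GRCh38.p14). In order these are *MMP7*, *MMP20*, *MMP27*, *MMP8*, *MMP10*, *MMP1*, *MMP3*, *MMP12*, and *MMP13*. The neighbors did not all share the ligand pattern. *MMP20*, *MMP27*, and *MMP8* had at most 2, 4, and 5 counts in any library. *MMP12*, the macrophage elastase gene, had 0 or 1 count in CSS, 8 to 66 at 4 hours of EGF, and 5 to 14 at 4 hours of NRG-1.

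Over the 32 libraries, with batch means removed, *MMP1* and *MMP10* had the most similar patterns of the 10 genes (Pearson *r* = 0.993). This is a description across libraries that share ligand and time. Next to both came *CXCR4*, a chemokine receptor gene (*r* = 0.988 with *MMP1* and 0.992 with *MMP10*), and *WDR1*, which acts in actin turnover (*r* = 0.984 and 0.988). *MMP3* was most like *MMP13* (*r* = 0.953), and *MMP13* was most like *SERPINB8* (*r* = 0.981). *MMP7* was most like *EIF3J*, which encodes a translation initiation factor subunit (*r* = 0.985), and *TIMP1* most like *FAM69A* (*r* = 0.985), and both had *CORO1C*, an actin-binding protein gene, among their nearest 3. *TIMP3* was most like *HBEGF*, which encodes a ligand of the EGF receptor (*r* = 0.972), then *DUSP10*, a MAP kinase phosphatase gene, and *ETS2*. *TIMP2* was most like *FBXO2* (*r* = 0.987), and its *r* with *MMP16* was 0.892. *MMP14* had no gene above *r* = 0.647.

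Genes that act with the MMPs were described from 4 lists. Of 17 other MMP and TIMP genes, 10 had enough counts to be tested, and 1 passed, *MMP12*, which was higher at 1 hour of EGF and at 4 hours of each ligand. It had 1 count over the 4 CSS libraries and 127 after 4 hours of EGF, a ratio of 136 (95% counting interval 24.0–5430). At 4 hours of EGF the median log2 fold change over these 10 was 0.05, against −0.02 over all genes. The share of all genes past the thresholds was 1.72% at 1 hour of EGF, 9.56% at 4 hours, and 7.41% at 4 hours of NRG-1. The gelatinase genes *MMP2* and *MMP9* had too few counts to be tested in any comparison, and had group means of 0.0050 and 0.010 TPM in CSS. In FBS, *MMP17* passed (log2 fold change 1.03, SE 0.37, adjusted *P* = 0.0197), and this call was lost in each batch alone and without FBS replicate 2. Of all genes, 8.71% passed in FBS.

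Of 20 activators and inhibitors of the system, 19 were tested. None passed at 1 hour by edgeR, where 3 had an unadjusted *P* value below 0.05 with EGF and 2 with NRG-1, and DESeq2 also called none. At 4 hours 4 passed with each ligand, all higher, among them *PLAU*, *CD44*, and *A2M*. Of all genes, 5.86% were higher with EGF and 4.87% with NRG-1. *PLAU*, which encodes the plasminogen activator urokinase, had 2 counts over the 4 CSS libraries and 25 after 4 hours of EGF, a ratio of 13.4 (95% counting interval 3.35–117). The list median was 0.29. In FBS, *CD44* was higher (1.68, SE 0.58, adjusted *P* = 0.0161) and 3 were lower, among them *A2M*, which encodes a broad protease inhibitor (−1.52, SE 0.37, adjusted *P* = 0.0010), and *LRP1*, which encodes an endocytic receptor for protease complexes (−1.34, SE 0.20, adjusted *P* = 2.36e-06). Of all genes, 4.91% were higher in FBS and 3.8% lower.

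All 17 AP-1, ETS, and RUNX factor genes were tested. At 1 hour 8 were higher with EGF and 5 with NRG-1, and at 4 hours 6 were higher with each ligand, with none lower. Of all genes, 1.46% and 0.806% were higher with EGF and NRG-1 at 1 hour, and 5.86% and 4.87% at 4 hours. *FOS*, an AP-1 subunit gene, had a mean of 0.619 CPM in CSS, 140 CPM after 1 hour and 33.2 CPM after 4 hours with EGF, and for NRG-1 145 and 15.9 CPM. *ETV4*, which encodes a PEA3-family factor, had 0.0704 CPM in CSS, 0.166 at 1 hour and 11.0 at 4 hours of EGF. *FOSL1* had 0.0866, 4.43, and 1.22 CPM. At 1 hour, *FOSB* (log2 fold change 1.59, SE 0.17) and *ATF3* (1.05, SE 0.17) were higher with EGF than with NRG-1, whereas *FOS* differed by −0.03 (SE 0.24). At 4 hours, *JUNB* (1.06, SE 0.12) and *FOS* (1.11, SE 0.26) were higher with EGF. The list had been chosen with earlier results of these data known. *FOSB*, *ATF3*, and *JUNB* were also named after their values were seen, so these ligand differences are given without *P* values. In FBS, *RUNX2* was higher than in CSS (1.16, SE 0.12, adjusted *P* = 1.80e-09), and *ETV5* (−1.16, SE 0.21, adjusted *P* = 3.06e-05) and *FOSL2* (−1.01, SE 0.13, adjusted *P* = 1.59e-07) were lower. Of all genes, 4.91% were higher in FBS and 3.8% lower.

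Of 18 matrix genes, many of them MMP substrates, 14 were tested. With each ligand, 2 were higher at 1 hour (*NID1* and *SPARC*), and at 4 hours 3 were higher (*TNC*, *SPARC*, and *NID1*) and 2 lower (*COL4A2* and *ELN*). Of all genes, 1.72% and 0.989% passed in either direction with EGF and NRG-1 at 1 hour, and 9.56% and 7.41% at 4 hours. *TNC*, which encodes tenascin-C, had a mean of 0.440 CPM in CSS, 0.522 at 1 hour and 6.35 at 4 hours of EGF. *NID1*, which encodes a basement membrane linker, had 0.0620, 0.332, and 0.405 CPM, and *SPARC* had 0.202, 1.60, and 1.43 CPM. In FBS, the collagen genes *COL5A1* (log2 fold change −1.55, SE 0.20, adjusted *P* = 1.62e-07) and *COL3A1* (−1.11, SE 0.12, adjusted *P* = 1.73e-08) were lower than in CSS. Of all genes, 3.8% were lower in FBS.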

How the data were processed

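Polyadenylated RNA of LNCaP cells was sequenced from 32 libraries. The authors trimmed reads with Trimmomatic 0.36 and quantified genes in stranded mode with RSEM and STAR 2.7.0f, and their processing notes name hg19. They deposited an expected count per gene and library, not scaled for depth, and TPM values, scaled for transcript length and library total. Replicates were not pooled, and columns left unused numbered 0. The library kit is named differently in the labels and the methods. Groups, batches, and replicates came from the sample labels; the 2 replicates of batch 2 are called replicates 3 and 4. *P* values measure the spread between replicates of 1 cell line.

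Expected counts were rounded (1 of 320 values of the 10 genes was not whole). Genes reaching 5 counts in 3 or more libraries were tested with edgeR 4.0.16 (R 4.3.3): quasi-likelihood test, TMM, group and batch terms, all libraries, Benjamini-Hochberg adjustment over 16995 genes. SE was the log2 fold change divided by the square root of *F*. CPM used TMM-scaled totals. With over 63822654 counts per library, counting error was small except for genes with few counts. Same-numbered libraries, which always shared a batch, deviated together: over 112 pairs, *r* of deviations from group means was 0.13 to 0.57. Batch means were not removed, so a pairing by number cannot be told apart from batch here. All replicate pairs differed by more than sampling noise (lowest chi-square per degree of freedom 6.50).

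The 10 genes, the gene lists, and the tests were chosen with earlier results of these data known, including *MMP1* and *MMP10* at 4 hours and *MMP1* between ligands at 1 hour. From each list, up to 3 genes with the largest change past the thresholds were to be named for 4 hours of EGF and up to 3 for FBS. The genes most alike were the top 3 by correlation of log2 CPM (prior count 2) among genes with average log2 CPM of at least 1. *MMP2*, *MMP9*, *ATF3*, *FOSB*, *JUNB*, *ELN*, *COL4A2*, and the chromosome 11 neighbors were named after their values were seen. Alternatives were DESeq2 1.42.0, its size factors, no filter, no batch term, a replicate block, each batch, the compared groups only, limma 3.58.1 on log2 of TPM plus 1 or 0.1, and leaving out each library. The fits were tested on simulated data. RefSeq coordinates are on GRCh38.p14 and were not joined with the hg19 files. A result for a gene of the activator and inhibitor list is not reported here.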

Additional observations from a re-analysis of the deposited data

Results flagged for a closer look

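Within each group of 4 libraries, the CPM of each of the 10 genes was checked for a highest or lowest library that stood apart by Dixon's 95% criterion. This flagged 6 of 76 groups, where the criterion's nominal rate gives about 4. A group with counts in only 1 library is always flagged, so that nominal number does not hold for genes near 0 counts. *MMP14* was 0.0397 CPM (3 counts) in NRG-1 1-hour replicate 1, against 0.0654–0.0705 in the other 3 libraries. It was 0.107 CPM (7 counts) in NRG-1 4-hour replicate 3, against 0.0400–0.0459. *MMP3* had 1 count in EGF 5-minute replicate 4 (0.0132 CPM) and 1 in FBS replicate 4 (0.0168 CPM), with 0 in the other libraries of those groups. *TIMP1* was 0.0364 CPM (3 counts) in CSS replicate 4, with 0 in the other 3. *TIMP2* was 91.3 CPM (7481 counts) in EGF 1-hour replicate 3, against 84.7–85.6. The *TIMP1* library sets the ratios to CSS given for that gene. No difference between ligands changed with time past the thresholds for any of the 10 genes. The libraries compared there were those whose values had chosen the genes, so nothing is read from this.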

How the results depend on the processing

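The counts of the 10 genes past the thresholds kept within 1.5 times of the main count under each alternative apart from those that follow. Limma on log2(TPM + 1), with or without its filter, gave 1 gene in place of 6 for NRG-1 at 1 hour against CSS, 2 in place of 4 for FBS against CSS, and 2 in place of 4 for EGF against NRG-1 at 1 hour. Batch 2 alone, with 2 libraries per group, gave 1 in place of 4 for EGF against NRG-1 at 1 hour and 0 in place of 3 at 4 hours. Leaving out 1 library gave 6 for EGF at 1 hour, 4–6 for NRG-1 at 1 hour, 7–8 and 7 at 4 hours, 3–4 for FBS, 3–4 and 2–4 for EGF against NRG-1 at 1 hour and 4 hours, and 0 at 5 minutes and for the interaction. With the replicate block, which pairs same-numbered libraries, the counts stayed at 6, 6, 7, and 7 against CSS at 1 hour and 4 hours, 4 for FBS, and 4 and 3 between ligands, and no call of these genes changed. *TIMP3* lost its call between ligands at 4 hours when only the 2 groups were fitted by edgeR and with limma on TPM, and its call in FBS with limma on TPM. With limma on log2(TPM + 1), *MMP7* in FBS and *MMP13* and *TIMP3* between ligands at 1 hour fell under the fold limit. Values near 0 changed sign for EGF against NRG-1: at 1 hour *MMP16* was −0.0395 in batch 2 alone and *TIMP2* was −0.0379 in batch 1 alone and −0.00966 to 0.0718 without 1 library; at 4 hours *MMP16* was 0.0268 in batch 2 alone, 0.0153 with limma on log2(TPM + 1) with or without filter, 0.0157 with a pseudocount of 0.1, and −0.0537 to 0.0175 without 1 library, and *TIMP2* was −0.0741 to 0.0140 without 1 library. Of 62 other fold changes of the 10 genes, each with an unadjusted *P* of at least 0.05 by edgeR, 31 changed sign under some alternative, and 1 passed under any, *MMP14* at 4 hours of EGF (−4.88 in batch 1 alone, where the EGF libraries had 0 counts). The cause of these changes was not tested.

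The counts for the 4 gene lists were recomputed as alternatives chosen after seeing the data. Dropping the fold limit raised them, at 1 hour to 2 other MMP and TIMP genes with EGF and 10 AP-1, ETS, and RUNX factors with NRG-1, and at 4 hours of EGF and NRG-1 to 4 and 4 other MMP and TIMP genes, 12 and 9 activators and inhibitors, and 12 and 12 factors; for FBS they became 3, 11, 6, and 7 (matrix genes). Limma on log2(TPM + 1), with or without filter, lowered the lists of other MMP and TIMP genes, of activators and inhibitors, and of matrix genes to 0 in each comparison in which edgeR called any, and the factors to 3 for NRG-1 at 4 hours and 1 for FBS. With a pseudocount of 0.1 the other MMP and TIMP genes were at 0, the activators at 0 at 4 hours and 2 for FBS, the factors at 1 for FBS, and the matrix genes at 0 at 1 hour and 1 at 4 hours and for FBS. Batch 1 alone gave 2 other MMP and TIMP genes at 4 hours of EGF, 0 for FBS, and 1 matrix gene for NRG-1 at 1 hour. Batch 2 alone gave 0 other MMP and TIMP genes for EGF at 1 hour and for FBS, 1 activator at 4 hours of either ligand, and 4 matrix genes for FBS. No filter gave 2 other MMP and TIMP genes at 4 hours of NRG-1. Of all 16995 genes, dropping the fold limit let 1617 and 1144 pass at 1 hour of EGF and NRG-1. It let 8358 and 7245 pass at 4 hours, and 8959 for FBS. Leaving out 1 library gave 1–2 other MMP and TIMP genes at 4 hours and 0–1 for FBS, and 0–1 activators for NRG-1 at 1 hour.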
